A study of Homo sapiens with 4 samples.

Results

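The sites described here are FOXA2 binding sites that were found in PC3 cells both with and without GSK2879552, but whose point of highest signal lay at a different place in the 2 conditions. FOXA2, a transcription factor of the forkhead family, recognises a short DNA motif and can open compact chromatin. PC3 cells are a prostate cancer line that grows without androgen. The compound GSK2879552 inhibits the histone demethylase LSD1 (KDM1A), which also removes a methyl group from the related factor FOXA1 in prostate cancer cells. In chromatin immunoprecipitation followed by sequencing (ChIP-seq), the summit of a peak is the base covered by most sequenced fragments, and it is the usual estimate of where within the bound interval the factor sits.

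One peak list was given for PC3 cells treated with 50 µM GSK2879552 for 4 hours and one for PC3 cells with vehicle, both in medium with 5% CSS. The treatment text of the vehicle samples is the same as that of the treated ones and gives no separate time for the vehicle. Each list covers 2 sequencing lanes labelled as technical replicates, so spread between cultures was not measured, no test between the conditions was possible, and every difference is one between 2 libraries. The titles and the series name FOXA2 ChIP-seq, which was followed, although the sample descriptions name ATAC-seq.

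A GSK2879552 peak and a vehicle peak were taken as a pair when each was the partner with which the other shared most bases. On chromosomes 1 to 22 and X there were 13037 such pairs, made from 14642 GSK2879552 and 21065 vehicle peaks. Of these, 1003 pairs (7.69%, exact 95% interval 7.24 to 8.16, counting error only) had summits more than 80 bp apart, and 12034 pairs had summits 80 bp or less apart. The 1003 moved sites were thus chosen by the measured summit positions of the same 2 libraries. Summit, interval and fragment number of a peak come from the same reads, so all values below are descriptions and none is a test of the choice. The shortest GSK2879552 interval spanned 168 bp and the shortest vehicle interval 175 bp, lengths taken as those of the fragments, and the background corresponded to 6.44 and 6.17 reads per kb if no control library was used.

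The limit of 80 bp cut through a continuous distribution. The distance had a median of 103 bp over the moved sites (interquartile range 90 to 131, highest 834) and of 21 bp over the remaining pairs (9 to 38). Pairs fell in number with every step around the limit, with 265 pairs at 81 to 90 bp and 364 at 71 to 80 bp. Just inside it, 29 pairs lay at exactly 81 bp, with a median of 14 fragments at the GSK2879552 summit and 20 at the vehicle summit. Just outside it, 38 pairs lay at exactly 80 bp, with medians of 14 and 21. The strongest pairs at 81 bp were chr5:39712963-39713332, with 41 fragments in GSK2879552 and 64 in vehicle, and chr8:108314749-108315100, with 40 in GSK2879552 and 46 in vehicle. Those at 80 bp were chr3:85609631-85610106, with 42 in GSK2879552 and 56 in vehicle, and chr4:57488442-57488764, with 30 in GSK2879552 and 43 in vehicle. No gap separates the moved sites from the rest.

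**Figure D1:**
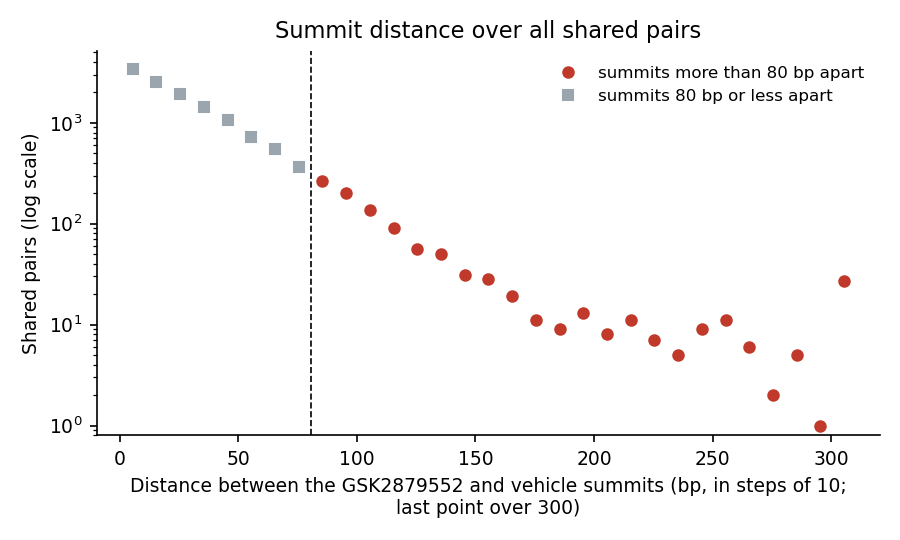
Number of shared pairs (log scale) against the distance between their GSK2879552 and vehicle summits in steps of 10 bp, with all pairs over 300 bp in the last point and the 80 bp limit dashed. The counts run on across the limit without a gap, with 265 pairs at 81 to 90 bp and 364 at 71 to 80 bp.

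Most moves were short relative to the fragments. Of the 1003, 466 (46.5%) had summits 81 to 100 bp apart, 284 (28.3%) 101 to 130 bp, and 133 (13.3%) 131 to 173 bp. The remaining 120 sites (11.96%, 10.0 to 14.1) had summits more than 175 bp apart, so that no fragment of that length could cover both. The direction was close to even: the GSK2879552 summit lay at the higher coordinate at 472 sites (47.1%, 43.9 to 50.2), against 5939 of the remaining pairs (49.4%, 48.5 to 50.2). Remaining pairs with both summits at the same base counted as not higher.

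Moved sites were weaker than other shared sites in both conditions. The median moved site had 15 fragments at its GSK2879552 summit (interquartile range 12 to 19) and 18 at its vehicle summit (14 to 25). The remaining pairs had 19 (14 to 27) in GSK2879552 and 24 (18 to 35) in vehicle. The authors' fold enrichment over the local background had medians of 5.69 in GSK2879552 and 6.73 in vehicle at moved sites, and 7.02 and 8.62 at the rest. Fewer than 20 fragments in both lists were found at 533 moved sites (53.1%, 50.0 to 56.3) and at 3632 of the remaining pairs (30.2%, 29.4 to 31.01).

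The share of pairs that moved fell with the strength of the site. With all pairs ranked by the geometric mean of their fragment numbers and split into 10 bins, 244 of 1304 in the weakest bin had moved (18.7%, 16.6 to 20.9), at median fragments of 11 in GSK2879552 and 12 in vehicle. In bin 5 it was 98 of 1304 (7.52%), and in bins 8 and 9 it was 40 of 1304 each (3.07%, 2.20 to 4.15). The strongest bin had 40 of 1303, of which 16 were at the high-background positions described next. The median distance over all pairs of a bin was 38 bp in the weakest and 13 bp in the strongest. Whether a summit at a site with few fragments would return to the same base in a second library of the same condition was not tested, since each condition has 1 list.

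The strongest sites kept their summits within the limit. Pairs whose local background reached 25 fragments in either list, here termed high-background, were set apart. Outside them, none of the 102 pairs with 100 or more vehicle fragments had moved, which allows a share of up to 3.55%. All 10 moved sites with 100 or more vehicle fragments were high-background positions. Among the 1000 pairs with most fragments outside such positions, 21 had moved (2.1%, 1.30 to 3.19), and none of the top 100. At the strongest pair outside high background, chr10:33444863-33445489 in vehicle, the summits were 3 bp apart with 256 fragments in GSK2879552 and 308 in vehicle. The next in vehicle fragments had summits 16 bp, 2 bp, 18 bp and 33 bp apart.

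Below 50 vehicle fragments, the share that moved was higher at wider joined intervals. The joined interval, from the outer edges of both peaks, had a median of 349 bp at moved sites (286.5 to 421.5) and 304 bp at the rest (265 to 352). Its length grows with the displacement of the peaks itself, so classes of joined width partly sort on the move. The peaks' own widths differed less, with medians of 242 bp at moved sites and 252 bp at the rest in GSK2879552, and 302 bp and 289 bp in vehicle. Of pairs with a joined interval of 500 bp or more, 114 of 491 had moved (23.2%, 19.6 to 27.2), against 95 of 2105 pairs under 250 bp (4.51%, 3.67 to 5.49). Among pairs with fewer than 15 vehicle fragments, 35 of 68 with a joined interval of 400 bp or more had moved (51.5%, 39.0 to 63.8). At the same strength, 84 of 283 at 300 bp to under 400 bp had moved (29.7%, 24.4 to 35.4), and 142 of 1391 under 300 bp (10.2%, 8.67 to 11.9). At 50 to 99 fragments the order did not hold, with 20 of 426 at 400 bp or more (4.69%, 2.89 to 7.16), 8 of 698 in the middle class (1.15%, 0.496 to 2.25) and 5 of 73 under 300 bp (6.85%, 2.26 to 15.3). Under 300 bp, however, 14 of the 73 pairs and 3 of the 5 moved ones were high-background. In the wider classes 1 of the 20 and 2 of the 8 moved pairs were. At 100 or more it was 8 of 103 (7.77%), 1 of 65 (1.54%) and 1 of 30 (3.33%).

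**Figure D2:**
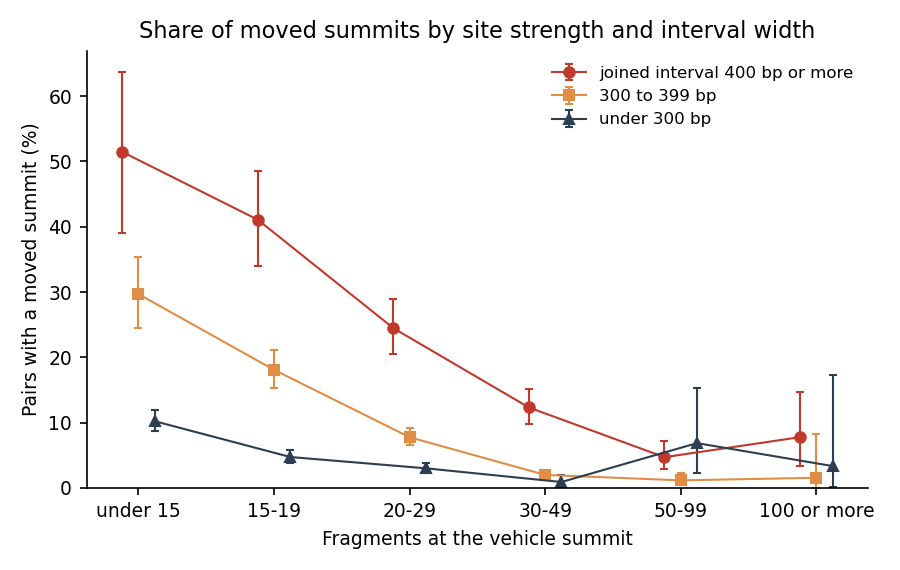
Percentage of shared pairs with summits more than 80 bp apart (vertical, with exact 95% intervals as bars) against fragments at the vehicle summit, for joined intervals of 400 bp or more, 300 bp to under 400 bp and under 300 bp. Up to 49 fragments the share falls with fragments in each width class and is highest for the widest intervals, where it reaches 51.5% under 15 fragments. At 50 to 99 fragments it is highest under 300 bp (6.85%), where 3 of the 5 moved pairs are at high-background positions. With 100 or more fragments, all moved pairs are at such positions.

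Most moved sites were weak, wide or both. Taking fewer than 20 fragments in both lists as weak and 350 bp or more in either list as wide, 403 moved sites were weak and narrow, 130 weak and wide, and 272 stronger and wide. Another 198 were neither weak nor wide (19.7%, 17.3 to 22.3), against 5841 of the remaining pairs (48.5%, 47.6 to 49.4). Weak and wide pairs moved most often, at 130 of 370 (35.1%, 30.3 to 40.2). Pairs that were neither moved least, at 198 of 6039 (3.28%, 2.84 to 3.76).

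With all strengths together, the median fall in fragments after GSK2879552 was about the same at moved and unmoved summits. The log2 ratio of fragments, GSK2879552 over vehicle, was scaled by the lowest local background of each list. Its median was -0.32 at moved sites (interquartile range -0.59 to -0.00297) and -0.32 at the rest (-0.58 to -0.09). Among pairs neither weak nor wide it was -0.49 at moved sites and -0.40 at the rest. Among stronger and wide pairs it was -0.47 and -0.41. Among weak and narrow pairs it was -0.18 and -0.15, and among weak and wide pairs -0.12 and -0.18. Unscaled, GSK2879552 had fewer fragments at 741 moved sites (73.9%, 71.0 to 76.6), as many at 81 and more at 181. At the remaining pairs it had fewer at 9452 (78.5%, 77.8 to 79.3). A scaled number at least 1.5-fold lower was found at 263 moved sites (26.2%, 23.5 to 29.1), where 25.1% of all pairs were that much lower. A number at least 1.5-fold higher was found at 17 (1.69%, 0.990 to 2.70), where it was 0.836% of all pairs. Both shares were taken from the libraries that chose the sites.

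**Figure D3:**
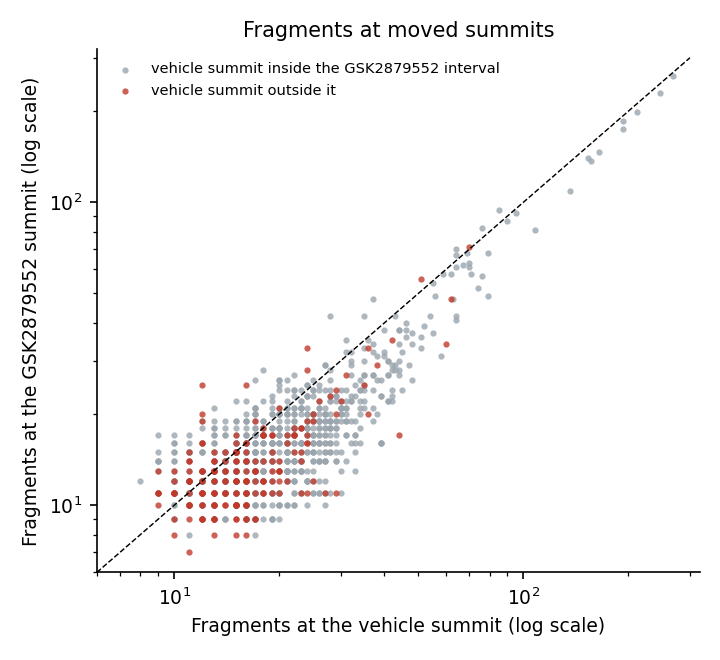
Fragments at the GSK2879552 summit against fragments at the vehicle summit of the 1003 moved sites, both on log scales, with equality dashed and sites whose vehicle summit lay outside the GSK2879552 interval in red. Most points lie below the dashed line (741 sites) and most sites crowd at the low end of both axes.

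The bound interval shifted with the summit. At 872 moved sites (86.9%, 84.7 to 89.0) the midpoint of the interval had shifted the same way as the summit, against 7733 of the remaining pairs (64.3%, 63.4 to 65.1). Shifts of exactly 0 counted as not the same way. Only the remaining pairs can have a summit shift of 0, which lowers their share. The edge on the vehicle summit's side lay a median of 73 bp further in towards the GSK2879552 summit at moved sites (34.5 to 107.5) and 27 bp at the rest (4 to 53). The edge on the GSK2879552 summit's side lay a median of 23 bp further out at moved sites (-10 to 61.5), and at the rest it lay -5 bp, that is inwards (-30 to 17). By these medians, moved sites lost interval behind the summit and gained it ahead, while the remaining pairs drew in on both sides. The remaining pairs differed by summit distance, however. For the edge on the GSK2879552 summit's side, medians were -11 bp at 0 to 20 bp and -3 bp at 21 to 40 bp. They were 6 bp at 41 to 60 bp and 13 bp at 61 to 80 bp. At moved sites 81 to 100 bp apart the median was 19.5 bp. The other edge lay 19, 30, 41 and 50 bp further in over the same steps to 80 bp. At 81 to 100 bp it lay 63 bp further in. Both edges thus changed gradually across the limit. Across the 1003 sites, Pearson's r between summit shift and midpoint shift was 0.76 (Spearman's rho 0.75). Summit and interval are read from the same fragments, and the limit leaves no moved site with a shift near 0. Over the rest r was 0.41.

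**Figure D4:**
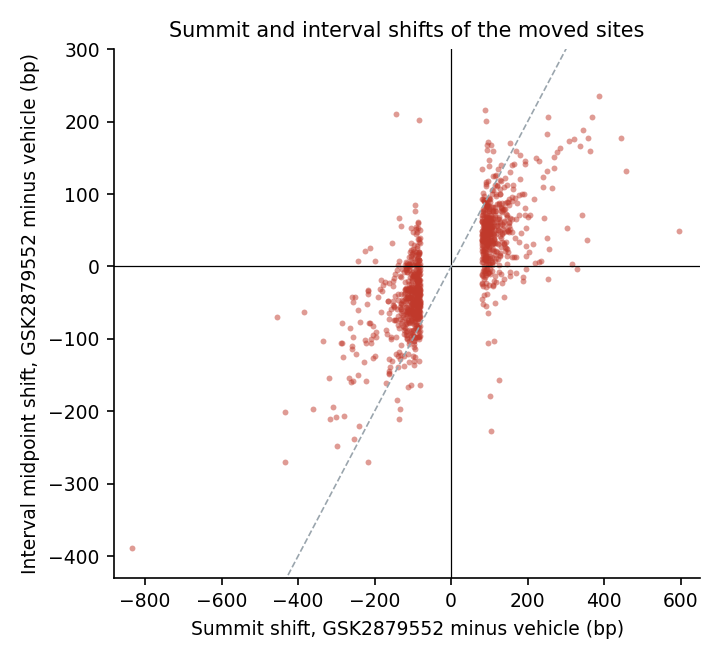
Shift of the interval midpoint against shift of the summit (both GSK2879552 minus vehicle, in bp) for the 1003 moved sites, with equal shifts dashed. Sites lie mostly in the lower left and upper right quadrants, where both shifts have the same sign (872 sites), and no site lies within 80 bp of 0 on the horizontal axis because of the rule.

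Intervals were narrower after GSK2879552 at moved sites as at shared sites in general, but large changes of width were more frequent. The median width at moved sites was 242 bp in GSK2879552 (192 to 328) and 302 bp in vehicle (232.5 to 395.5), a median log2 ratio of -0.22. At the rest the widths were 252 bp and 289 bp, with a median log2 ratio of -0.17. The interval was at least 1.5-fold narrower at 221 moved sites (22.03%, 19.5 to 24.7), where 11.4% of all pairs were. It was at least 1.5-fold wider at 27 (2.69%, 1.78 to 3.89), where 0.989% of all pairs were. The intervals were staggered, neither inside the other, at 656 moved sites (65.4%, 62.4 to 68.3) and at 5587 of the rest (46.4%, 45.5 to 47.3).

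At 263 moved sites at least 1 summit lay outside the other condition's interval. Both summits lay inside both intervals at 740 sites (73.8%, 70.9 to 76.5) and at 11974 of the remaining pairs (99.5%). The vehicle summit lay outside the paired GSK2879552 interval at 197 moved sites (19.6%, 17.2 to 22.2; 1.87% of all pairs), by a median of 32 bp. At 184 it was in no GSK2879552 peak at all (18.3%, against 1.77% of all pairs). The GSK2879552 summit lay outside the paired vehicle interval at 116 (11.6%, 9.65 to 13.7, against 0.997% of all pairs), by a median of 24 bp. At 112 it was in no vehicle peak (11.2%, against 0.966% of all pairs). Both summits were outside at 50 sites, against 0.391% of all pairs. Summits far apart more readily lie outside the other interval, so these differences from all pairs partly follow from the choice of sites.

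These classes differed in strength and width. An interval that leaves out the other summit must end short of it, so edges and widths partly follow from how the classes are defined. Where both summits lay inside both intervals, medians were 16 fragments in GSK2879552 and 20 in vehicle, with widths of 262.5 and 315 bp. Where only the vehicle summit was left out (147 sites), fragments were 13 in GSK2879552 and 16 in vehicle and widths 192 and 328 bp, a median log2 width ratio of -0.72. At these sites the edge on the vehicle summit's side lay 135 bp further in. Where only the GSK2879552 summit was left out (66 sites), fragments were 12 in GSK2879552 and 14 in vehicle. Here the GSK2879552 interval was the wider one, at 235 bp against 200 bp in vehicle, and the median log2 ratio of fragments was -0.15 (-0.39 to 0.08).

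The 120 sites with summits more than 1 fragment length apart had wide vehicle intervals. Overlapping intervals can hold summits that far apart only if they are wide or displaced. Their widths and the summits outside the other interval thus partly follow from the distance that chose them. The median width was 316 bp in GSK2879552 (226 to 435) and 456 bp in vehicle (347.75 to 558.75). Their median fragments were 17 in GSK2879552 and 22 in vehicle. The vehicle summit lay outside the GSK2879552 interval at 63 of them (52.5%, 43.2 to 61.7), against 1.87% of all pairs. The interval was at least 1.5-fold narrower at 46 (38.3%, 29.6 to 47.6), where 11.4% of all pairs were. Another summit of either list stood within 1 kb at 28 (23.3%, 16.1 to 31.9), against 93 of all moved sites (9.27%, 7.55 to 11.2) and 705 of the rest (5.86%, 5.45 to 6.29).

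Some of these long moves lay at double sites where a summit was kept but belonged to another interval. At 13 moved sites, all of them over 175 bp, another GSK2879552 peak had its summit within 80 bp of the vehicle summit. At 3, another vehicle summit lay within 80 bp of the GSK2879552 summit, and together they made 15 sites. The largest distance of all was one of these. On chromosome 4 the paired intervals were chr4:177804368-177805074 in GSK2879552, with 33 fragments, and chr4:177804737-177805482 in vehicle, with 24 fragments, and their summits were 834 bp apart. A second GSK2879552 peak at chr4:177805243-177805486 with 23 fragments had its summit 40 bp from the vehicle one. A second vehicle peak at chr4:177804389-177804631 with 24 fragments had its summit 19 bp from the GSK2879552 one. Both lists thus held the same 2 summits, and the stretch between them was joined to the left peak in GSK2879552 and to the right peak in vehicle.

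At chr10:54232190-54232936 one wide vehicle peak stood over 2 GSK2879552 peaks. The GSK2879552 peaks had 34 fragments at chr10:54232223-54232502 and 31 at chr10:54232717-54232902, and the vehicle peak had 60 fragments. The vehicle summit was 434 bp from the first and 14 bp from the second. The 2 GSK2879552 summits differed by only 3 fragments, and the one that shares more bases with the vehicle peak was the far one.

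At other long moves neither list had a second peak near the old summit. At chr14:40633257-40634107 in vehicle, an interval of 851 bp with 38 fragments, the GSK2879552 peak covered 378 bp within it, with 29 fragments at a summit 458 bp away. At chr4:20196249-20196796 in vehicle, with 23 fragments, the GSK2879552 interval was nearly as wide, at 514 bp against 548 bp in vehicle, but its summit of 14 fragments stood at the opposite end, 456 bp away. At chr8:107467180-107467603 in vehicle the GSK2879552 interval was the wider one, at 605 bp against 424 bp in vehicle, and reached further right. Its summit had 19 fragments, 445 bp from the vehicle summit of 27. At chr5:92389328-92389851 in vehicle the GSK2879552 interval of 188 bp, with 12 fragments, overlapped the left end of the vehicle interval of 524 bp, with 18 fragments. In each of these 4 the fragment number was lower in GSK2879552.

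The other 2 of the 8 longest moves lay in dense background. At chr17:22245411-22246265 in vehicle, 62 fragments in GSK2879552 stood on a background of 21.8 and 67 in vehicle on 19.985, with summits 597 bp apart inside nearly equal intervals. At chr1:566082-566639 in vehicle, the numbers were 48 on 15.7 in GSK2879552 and 62 on 19.1 in vehicle, with summits 386 bp apart.

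**Figure D5:**
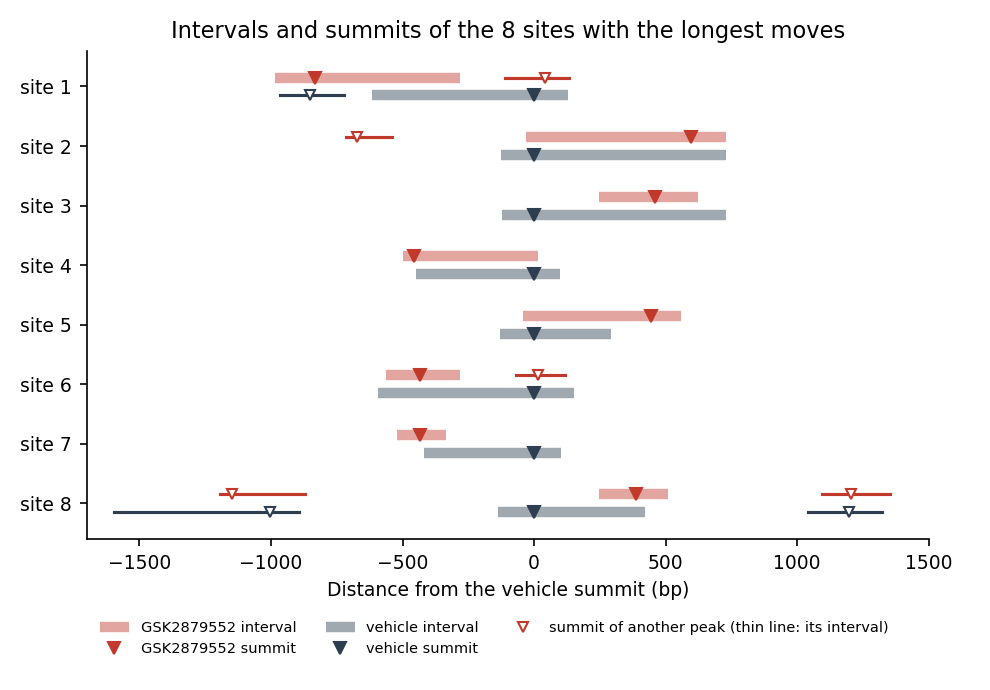
Intervals (thick bars) and summits (filled triangles) of the 8 moved sites with the longest distances outside high-background positions, GSK2879552 above vehicle, in bp from the vehicle summit; thin lines with open triangles are further peaks nearby. From the top, sites 1 to 8 are those on chromosomes 4 (834 bp), 17 (597 bp), 14 (458 bp), 4 (456 bp), 8 (445 bp), 10 (434 bp), 5 (434 bp) and 1 (386 bp); only at sites 1 and 6 does another peak's summit stand close to the vehicle summit.

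Strong moved sites were few, and at several of them both lists held the same wide interval. Ranked by fragments, 6 of the first 8 moved sites outside high-background positions still had backgrounds of 13.8 to 23.7 fragments, among them chr4:49120839-49121497 with 87 fragments in GSK2879552 and 90 in vehicle. Those with a background under 5 in both lists were therefore taken as well, a limit set after seeing these values. Of 12426 such pairs 957 had moved (7.70%), against 7.69% of all pairs. The strongest was chr20:29829311-29829847, where GSK2879552 had 68 fragments and vehicle 69, intervals of 537 and 529 bp, and summits 107 bp apart. At chr9:72652999-72653510, with the highest fold enrichment of any moved site (19.995 in GSK2879552 and 22.03 in vehicle), 63 and 70 fragments stood on summits 120 bp apart. At chr2:115512400-115512933 the fragments were 42 in GSK2879552 and 64 in vehicle and the summits 87 bp apart. At chr5:148319096-148319614 they were 36 in GSK2879552 and 51 in vehicle, with summits 146 bp apart in intervals of 519 and 505 bp. In all 4 each summit lay inside both intervals.

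Among moved sites with 20 or more fragments in either list, the lowest scaled ratio was at chr11:101706473-101706663, with 11 fragments in GSK2879552 and 30 in vehicle, a log2 ratio of -1.45 with summits 84 bp apart. It was followed by chr9:134884534-134884713, with 10 in GSK2879552 and 27 in vehicle. At chr8:41983443-41983620 there were 11 in GSK2879552 and 29 in vehicle. The GSK2879552 intervals of all 3 were 178 to 191 bp wide, against 304 to 364 bp in vehicle. The highest ratio was at chr19:54512054-54512325, with 25 fragments in GSK2879552 and 12 in vehicle, a log2 ratio of 1.06 with summits 146 bp apart and the vehicle summit outside the GSK2879552 interval. The next 2, chr8:79527320-79527530 with 20 and chr8:93581023-93581238 with 21 fragments in GSK2879552, had 12 and 13 in vehicle.

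High-background positions supplied 16 of the 1003 moved sites. There 16 of 120 pairs had moved (13.3%, 7.82 to 20.7), against 987 of 12917 elsewhere (7.64%, 7.19 to 8.11). Their median fragments were 123 in GSK2879552 and 144.5 in vehicle on backgrounds of 48.6 and 51.0, and their median log2 ratio was -0.10. Unlike at other moved sites the edges moved little by their medians, though single sites differed widely. The edge on the vehicle summit's side lay a median of 8.5 bp further in (interquartile range 4.75 to 32.25, lowest -142, highest 426). The other edge lay a median of -4 bp further out (-8.75 to 14.75, lowest -215, highest 100). The longest move among them was 201 bp at chr17:22258466-22258633, with 71 fragments in GSK2879552 and 70 in vehicle. There the edge on the vehicle summit's side lay 120 bp further in. The next longest was at chr8:46842210-46842576, a move of 195 bp with 94 fragments in GSK2879552 and 85 in vehicle. At chr8:46849118-46849531 the move was 148 bp, with 92 in GSK2879552 and 95 in vehicle.

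Moved sites were spread over all 23 chromosomes. Their share of pairs ran from 3 of 118 on chromosome 19 (2.54%, 0.527 to 7.25) to 40 of 455 on chromosome 9 (8.79%, 6.35 to 11.8). The interval of chromosome 19 ends below the 7.69% of all pairs, and just above 7.24%, their lower bound. Chromosome 19 was picked as the lowest of 23, and differences between chromosomes were not tested. Of the 200 kb windows with pairs, 882 held 1 moved site, 50 held 2, 5 held 3 and 1 held 6. The window with 6, chr16:46400001-46600000, had 20 pairs of which 16 were high-background. In chr17:22200001-22400000, 3 of 7 pairs had moved and 5 of the 7 were high-background. The only windows with 3 and no high-background pair were chr4:175200001-175400000, where all 3 pairs had moved, and chr1:121200001-121400000, with 3 of 9. The moved sites of the chromosome 1 window still had backgrounds of 13.9 to 20.8 fragments. Over all moved sites the median background was 1.63 in GSK2879552 and 1.73 in vehicle.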

How the data were processed

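FOXA2 ChIP-seq peak lists of PC3 cells were analysed, 1 per condition, each covering 2 lanes. BWA 0.7.2, SAMtools 0.1.18 and MACS2 2.1.2 with the hg19 (GRCh37) build are named in the submitters' processing notes. Their options, and whether a control library was used, were not stated. The deposited fold enrichment (a ratio, fragments over local background, 1 added to both), −log10 p-value and −log10 q-value are the authors'. The deposited score, 10 times the −log10 q, entered no result.

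Fold and p together give the fragments at a summit and its background. For 100% of peaks of either list a whole number under 1500 gave the deposited p, as a Poisson upper tail, to within 0.001 on the −log10 scale. This and the pairing were checked on simulated peaks. Ratios were scaled by the background floors, the lowest local background of each list (1.082 fragments in GSK2879552, 1.079 in vehicle). A floor reflects reads per kb and fragment length together, so the scaling is not one of read number alone. Overlap needed 1 bp. Summits and coordinates are 1-based. Shares carry exact (Clopper-Pearson) 95% intervals, which cover counting error only.

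The sites, limits and classes were chosen with earlier results of these data known. Named sites outside high background are the 8 longest moves, the 8 with most fragments, and the 3 lowest and 3 highest ratios, given in full or in part. The 3 longest high-background moves and the 2 strongest pairs at 81 bp and at 80 bp are also named; the strongest vehicle pairs and the limit of 5 fragments were added later. Genes and sequences were not analysed here. Python 3.11.15, scipy 1.17.1 and pandas 2.3.3 were used.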

Additional observations from a re-analysis of the deposited data

How the results depend on the processing

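The number and share of moved pairs follow the distance limit: 2646 pairs (20.3%) at more than 50 bp, 537 (4.12%) at more than 100 bp and 120 (0.920%) at more than 1 fragment length, by construction. Among stronger peaks the share was lower, at 5.81% (657 pairs) when both peaks needed a −log10 q of 5. It was 3.13% (185 pairs) when they needed 10, and 6.58% where at least 50% of both peaks had to overlap. Mutual nearest summits, peaks with 1 partner each, leaving out high-background pairs and adding the remaining sequences kept the number between 975 and 1038. The median log2 ratio of fragments at moved sites stayed between -0.35 and -0.29 in all 12 alternatives, with -0.35 for fragments above background. At the rest it was -0.32 at a −log10 q of 5, -0.31 at 10, -0.35 above background and -0.32 unscaled. The median log2 width ratio of moved sites was -0.29 beyond 1 fragment length and -0.12 at a −log10 q of 10; the cause was not tested. The share of moved sites whose GSK2879552 summit was nearer the middle of the joined interval, 40.3%, kept within its interval in all 10. At the remaining pairs this share was 43.5%, so it was below 50% there as well. No lane could be left out, since each list covers both. No paired analysis was possible because each condition has 1 list. The motif alternative was not run. Of the moved sites, 533 had fewer than 20 fragments in both lists, and how finely a summit is placed at that depth was not tested.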

Other observations

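Outside chromosomes 1 to 22 and X, on chromosome Y, the mitochondrial genome and unplaced or alternative sequence, 35 of 163 shared pairs had summits more than 80 bp apart. At the moved sites the GSK2879552 summit lay a median of 65 bp from the middle of the joined interval and the vehicle summit 50.5 bp, against 19 bp and 16 bp at the rest. With summits over 80 bp apart these distances must add up to more than 80 bp at every moved site, so their excess over the rest follows from the choice of sites. The interval had the shortest length the peak caller reports at 99 moved sites in GSK2879552 (9.87%, 8.09 to 11.9) and at 49 in vehicle (4.89%, 3.64 to 6.41). At the remaining pairs these shares were 6.67% in GSK2879552 and 2.16% in vehicle.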
